A study of Mus musculus with 8 samples.

Results

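The genes described are 8 of the Nodal signalling pathway in mouse embryonic stem cells (ESCs): *Nodal*, *Tdgf1*, *Lefty1*, *Lefty2*, *Acvr1b*, *Acvr2b*, *Smad7* and *Skil*. They are 8 of the 55401 genes counted in each library, chosen with earlier results of these data known. They were chosen by name for their role in the pathway, except *Lefty2*, which was picked because it differed between the 2 depletions in these libraries. Its values are therefore given as a description, without a test, and counts of members passing a test refer to the other 7. All 8 genes were among the 17532 with enough reads to be tested. RNA was sequenced from 2 control libraries, 3 labelled Zzz3 auxin and 3 labelled Yeats2 auxin. ZZZ3 and YEATS2 are subunits of the ATAC complex, a histone acetyltransferase coactivator of RNA polymerase II transcription. In the auxin groups, ZZZ3 or YEATS2 was fused to an auxin-inducible degron, a tag that directs the protein to the proteasome once auxin is present, in ESCs that express the plant receptor Tir1 under G418 selection. Auxin was given at 500 µM for 24 h. The cells were grown in serum with LIF and inhibitors of MEK and GSK3, which hold them near the naive state. The labels state neither the parental line nor any solvent or auxin treatment of the controls. The study's supplement lists contrasts of DMSO with auxin within each degron line for its RNA metabolism estimates, but does not say what these 2 shared control libraries are, and the number of clones behind each degron line is not given. Any effect of auxin, tag or clone therefore cannot be told apart from the loss of the subunit in comparisons with control.

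Nodal is a secreted ligand of the TGF-beta family. With its coreceptor TDGF1 (Cripto) it binds a receptor complex of type I and type II activin receptors, among them ACVR1B and ACVR2B, which phosphorylates SMAD2 and SMAD3. These enter the nucleus with SMAD4 and, through partners such as FOXH1, activate genes that include *Nodal* itself and its antagonists *Lefty1* and *Lefty2*. The LEFTY proteins are secreted, bind Nodal and its coreceptor, and limit the signal, while SMAD7 blocks the receptors and SKIL (SnoN) represses transcription at SMAD-bound genes. In ESCs the pathway is active, and in the embryo it patterns mesoderm, endoderm and the left-right axis.

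*Lefty1* and *Lefty2* are neighbouring paralogs on chromosome 1. Their sequences were compared because near-identical stretches decide how well reads can be assigned to either gene. In GRCm38 (mm10) with GENCODE annotation, *Lefty1* (ENSMUSG00000038793) lies at chr1:180935022-180938400 and *Lefty2* (ENSMUSG00000066652) at chr1:180893108-180899103, both on the plus strand. Their start codons lie 41926 bases apart. Each has 4 coding exons and 1104 coding bases, of which 90 differ, giving an identity of 91.8%. The coding stretch of 100 bases with the most differences contains 30, and runs at chr1:180935148-180935247 in *Lefty1* and chr1:180893222-180893321 in *Lefty2*. It is printed with the differing bases in capitals.
Lefty1: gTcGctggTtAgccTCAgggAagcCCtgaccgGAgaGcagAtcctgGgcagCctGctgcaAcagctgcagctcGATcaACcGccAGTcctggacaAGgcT
Lefty2: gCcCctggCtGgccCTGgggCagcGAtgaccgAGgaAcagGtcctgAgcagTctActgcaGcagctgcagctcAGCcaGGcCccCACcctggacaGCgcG
The longest identical run spanned 140 bases. Of the 50-base windows of the main transcript, 17.9% of those of *Lefty1* and 11.6% of those of *Lefty2* occurred in another gene of the annotation, and of the 100-base windows 4.80% and 3.07%. Uniquely aligned reads were counted, so read pairs that lie wholly in identical stretches add to neither gene. *Tdgf1* is the only other member with shared windows (12.5% of its 50-base windows, all with the pseudogene *Tdgf1-ps1*). No exon of a member overlapped an exon of another gene.

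Each library had 14315120 to 27884704 reads assigned to genes, and the lowest depth was that of Zzz3 auxin 3. Levels are given as CPM, reads of a gene per 1e6 assigned reads after TMM scaling of the library sizes (trimmed mean of M values). Differences are log2 fold changes (log2 FC) from edgeR's quasi-likelihood test fitted to all 8 libraries, with P values adjusted by Benjamini and Hochberg over all 17532 genes, and genes with an adjusted P under 0.05 were called. Nothing in the labels says that the libraries of a group came from separate cultures, so P values measure the spread between these libraries, which may be technical. *Zzz3* mRNA was at 77.5 to 112 CPM in the Zzz3 auxin libraries and at 182 to 186 CPM in the controls. *Yeats2* mRNA was at 43.7 to 103 CPM in the Yeats2 auxin libraries and overlapped with the controls, at 90.9 to 95.8 CPM. The degron acts on the proteins, so neither mRNA level measures their depletion. The 10 ESC markers examined, such as *Pou5f1* and *Nanog*, had group means of at least 1 CPM in every group, with a sum of 4369 to 5162 CPM per library, and none of the 5 fibroblast markers reached that level. Zzz3 auxin 1 stood apart from the other 7 libraries in several genes of this pathway and of other lineages: the mesoderm gene *T* was at 14.0 CPM there and at 5.86 to 7.20 CPM elsewhere. Control 1 stood apart by base composition, since the 25% of genes richest in GC lay 0.59 lower on the log2 scale than the 25% poorest in GC, relative to the mean of all libraries. In Zzz3 auxin 3 the direction was the opposite, with the GC-rich genes 0.43 higher, and in the other 6 libraries the difference (GC-rich minus GC-poor) was between -0.08 and 0.15.

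At the threshold, none of the 7 tested members was called in any of the 3 comparisons. Over all genes, 0.753% were called in Zzz3 auxin against control, 0.445% in Yeats2 auxin against control and 0% in Yeats2 auxin against Zzz3 auxin. At an unadjusted P under 0.05, *Nodal* and *Acvr2b* were higher in Zzz3 auxin than in control (2 of 7, with 11.6% of all genes) and none was lower (10.1% of all genes). In Yeats2 auxin against control *Nodal* was higher (1 of 7, with 7.65% of all genes) and *Skil* lower (1 of 7, with 6.98%). Between the depletions *Lefty1* and *Skil* were lower in Yeats2 auxin (2 of 7, with 3.81% of all genes) and none was higher (2.44%). DESeq2 called *Nodal* alone among the 7 in both comparisons with control, where it called 8.17% and 3.15% of the 13260 genes given an adjusted P. In the direct comparison it called none of the 7, with 0.00909% of 33005 genes. Without a filter on low counts, edgeR called *Nodal* against control in Zzz3 auxin (4.67% of 33007 genes) and Yeats2 auxin (1.68%) and *Lefty1* between the depletions (0.354%). With only the compared groups in the fit it called *Nodal* in Yeats2 auxin (2.69% of 16861 genes). Both comparisons with control use the same 2 control libraries, so they are not independent of each other.

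**Figure D1:**
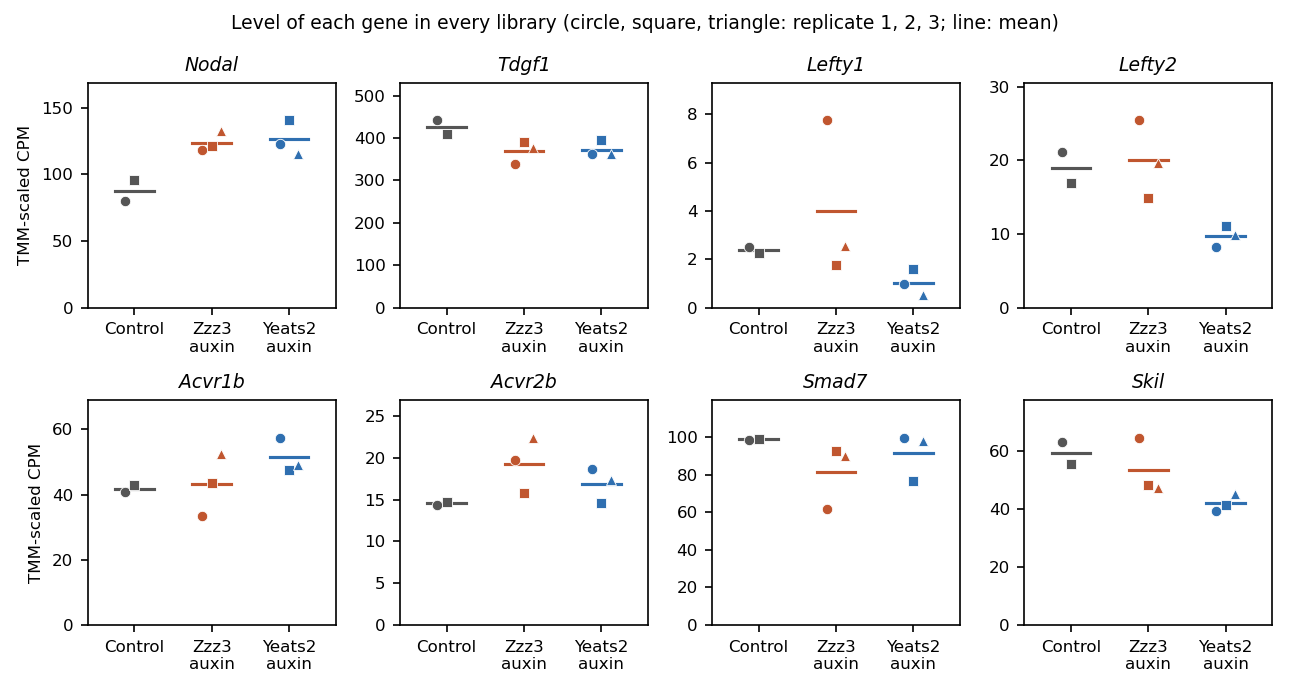
Expression of the 8 genes in each library, in TMM-scaled CPM on linear axes that start at 0, with 1 point per library and a bar at the mean of each group (control n = 2, Zzz3 auxin n = 3, Yeats2 auxin n = 3). The 3 Yeats2 auxin libraries lie lowest for *Lefty2* (8.20 to 11.1 CPM), the 2 controls lie lowest for *Nodal* (79.9 and 95.7 CPM), and Zzz3 auxin 1 lies highest for *Lefty1* (7.75 CPM).

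*Nodal*, the ligand (ENSMUSG00000037171, chr10:61417972-61425338, plus strand), had the highest levels in the auxin libraries of both lines. It was at 79.9 and 95.7 CPM in the controls, at 118, 121 and 132 CPM in Zzz3 auxin and at 123, 140 and 116 CPM in Yeats2 auxin. All 6 auxin libraries lay above both controls, as did those of 10.5% of all genes tested, while the 2 auxin groups overlapped. The means were 87.8 ± 11.2 (SD, n = 2), 124 ± 7.36 (n = 3) and 126 ± 12.8 CPM (n = 3). The log2 FC was 0.49 (SE 0.13, 95% interval 0.21 to 0.78, adjusted P = 0.0831 by edgeR) for Zzz3 auxin and 0.52 (SE 0.13, 0.24 to 0.81, adjusted P = 0.12) for Yeats2 auxin against control. Neither difference passed the threshold after adjustment. DESeq2 gave adjusted P of 0.023 and 0.0242, and the edgeR fit without a filter on low counts gave 0.0204 and 0.0196. The difference was smaller with a correction for base composition and without Control 1, the control with the lower *Nodal* level. *Nodal* transcripts are GC-rich (55.9%, above 84.3% of the genes tested), and with a correction for GC content and length the log2 FCs were 0.26 and 0.35 (adjusted P = 0.214 and 0.151 by edgeR). Without Control 1, which leaves 1 control, the log2 FCs were 0.37 and 0.40. Without Control 2 the log2 FC for Zzz3 auxin was 0.64. For Yeats2 auxin the highest value with 1 library left out was 0.66. Of 6 markers of the primed pluripotent state, *Dnmt3b* lay in the same order as the *Nodal* means, at 136 ± 12.9 (control), 160 ± 11.9 (Zzz3 auxin) and 199 ± 6.63 CPM (Yeats2 auxin, log2 FC against control 0.55, adjusted P = 0.0739 by edgeR). It made up most of the summed level of the list, which was 174 to 193, 197 to 219 and 237 to 253 CPM. *Otx2*, also a Nodal target, went the other way, at 9.09 ± 1.77, 8.53 ± 1.99 and 5.82 ± 0.663 CPM (Yeats2 auxin against control -0.64, adjusted P = 0.229). The median log2 FC of the 4 markers with enough reads was -0.04 and -0.23 against control, and *Fgf5* had 0 reads in both controls. The part of the primed state in the *Nodal* values was not tested. In bulk RNA, more cells with *Nodal* and more *Nodal* RNA per cell cannot be told apart, and the same holds for every gene here. Between the depletions the log2 FC was 0.03 (95% interval -0.22 to 0.28).

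*Tdgf1*, the coreceptor (ENSMUSG00000032494, chr9:110939603-110946158, minus strand), was the most abundant member. Its levels were 441 and 410 CPM in the controls, 339, 391 and 377 CPM in Zzz3 auxin, and 362, 394 and 361 CPM in Yeats2 auxin. Both auxin groups lay below both controls without overlap, the opposite direction to its ligand, as did 13.2% of all genes. The log2 FC was -0.21 (SE 0.11, adjusted P = 0.306 by edgeR) for Zzz3 auxin and -0.19 (SE 0.11, adjusted P = 0.447) for Yeats2 auxin, so neither was called. With the GC and length correction these were -0.077 and -0.098, and without Zzz3 auxin 1 the first was -0.13. The pseudogene *Tdgf1-ps1*, with which part of the transcript is shared, was at 38.5 to 43.2 CPM in the controls, 34.5 to 41.9 CPM in Zzz3 auxin and 36.2 to 37.8 CPM in Yeats2 auxin. Between the depletions, *Tdgf1* had a log2 FC of 0.01 (95% interval -0.21 to 0.23).

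*Lefty2* separated the 2 depletions by the rule that chose it. It was at 21.2 and 16.9 CPM in the controls, at 25.4, 15.0 and 19.7 CPM in Zzz3 auxin and at 8.20, 11.1 and 9.81 CPM in Yeats2 auxin. The 3 Yeats2 auxin libraries lay below all 5 others, whereas the Zzz3 auxin libraries lay on both sides of the controls. The group means were 19.0 ± 3.04 (SD, n = 2), 20.0 ± 5.23 (n = 3) and 9.71 ± 1.46 CPM (n = 3). The log2 FC was -1.04 (SE 0.20) between Yeats2 auxin and Zzz3 auxin, a level 2.06-fold lower. Against control it was -0.97 (SE 0.22) for Yeats2 auxin and 0.07 (SE 0.22) for Zzz3 auxin. Without Zzz3 auxin 1, the highest library, the difference between the depletions was -0.83. The counts behind these values were 212 to 307 reads per Yeats2 auxin library and 294 to 662 per library elsewhere. These are the values that chose the gene and carry no test.

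*Lefty1* was expressed at a much lower level, with few reads in most libraries. The controls had 51 and 50 reads, the Zzz3 auxin libraries 202, 48 and 38, and the Yeats2 auxin libraries 25, 44 and 13. In CPM these were 2.52 and 2.27, then 7.75, 1.76 and 2.54, then 0.967, 1.59 and 0.514. All 3 Yeats2 auxin libraries lay below both controls (as in 21% of all genes) and below all Zzz3 auxin libraries (5.82%). Zzz3 auxin 1 lay far above the 7 others. The log2 FC between Yeats2 auxin and Zzz3 auxin was -1.97 (SE 0.55, 95% interval -3.20 to -0.75, unadjusted P = 0.00477, adjusted P = 0.779 by edgeR). Without Zzz3 auxin 1 it was -1.02. With no filter on low counts the adjusted P was 0.000616 by edgeR. Against control, the log2 FC was -1.21 (SE 0.62, adjusted P = 0.395) for Yeats2 auxin. For Zzz3 auxin it was 0.77 (SE 0.59, adjusted P = 0.482), and it was 0.44 with the GC and length correction and turned to -0.17 without Zzz3 auxin 1. In Yeats2 auxin *Lefty1* had the same direction as *Lefty2*, and its difference did not pass the threshold.

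*Lefty1* formed a minor share of the reads assigned to both paralogs. The controls had shares of 10.6% and 11.8%, the Zzz3 auxin libraries 23.4%, 10.5% and 11.4%, and the Yeats2 auxin libraries 10.5%, 12.5% and 4.98%. Zzz3 auxin 1 had the highest share (exact Clopper-Pearson 95% interval 20.6 to 26.3%) and Yeats2 auxin 3 the lowest (2.68 to 8.37%), while the other 6 libraries lay between 10.5% and 12.5%. The intervals cover counting error only. When the reads of both genes were summed, which removes the split between them, the log2 FC was -1.16 between the depletions, -0.99 for Yeats2 auxin and 0.17 for Zzz3 auxin against control. Most of this sum is *Lefty2*, so these values too carry no test.

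**Figure D2:**
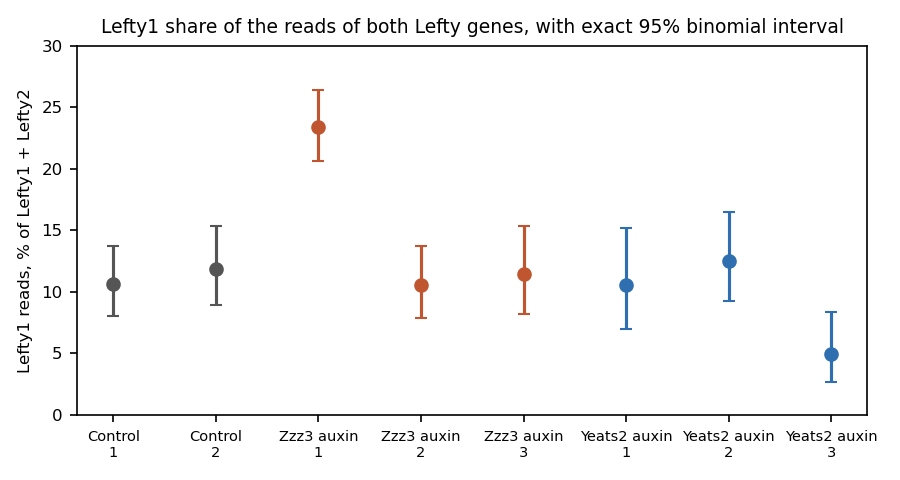
Share of *Lefty1* in the reads assigned to *Lefty1* or *Lefty2*, in percent, for each of the 8 libraries, with exact Clopper-Pearson 95% intervals. In the plot, 6 of the 8 libraries lie between 10.5% and 12.5%, with Zzz3 auxin 1 above (23.4%) and Yeats2 auxin 3 below (4.98%).

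Neither of the 2 receptor genes passed the threshold in any comparison. *Acvr1b*, the type I receptor (ENSMUSG00000000532, chr15:101174067-101213684, plus strand), was at 40.7 and 42.9 CPM in the controls, at 33.6, 43.6 and 52.3 CPM in Zzz3 auxin and at 57.4, 47.5 and 49.2 CPM in Yeats2 auxin. The Zzz3 auxin libraries lay on both sides of the controls, and the Yeats2 auxin libraries lay above them. The log2 FC was 0.04 (SE 0.17, adjusted P = 0.914 by edgeR) for Zzz3 auxin and 0.30 (SE 0.17, adjusted P = 0.451) for Yeats2 auxin. With the GC and length correction the second was 0.17, and without Zzz3 auxin 1 the first was 0.21. *Acvr2b*, the type II receptor (ENSMUSG00000061393, chr9:119402118-119434995, plus strand), was at 14.4 and 14.7 CPM in the controls, at 19.8, 15.8 and 22.4 CPM in Zzz3 auxin and at 18.7, 14.7 and 17.3 CPM in Yeats2 auxin. The Zzz3 auxin libraries lay above both controls and the Yeats2 auxin libraries overlapped with them. Its log2 FC was 0.40 (SE 0.18, unadjusted P = 0.0476, adjusted P = 0.225) for Zzz3 auxin and 0.22 (SE 0.18, adjusted P = 0.613) for Yeats2 auxin, and 0.21 and 0.068 with the GC and length correction. Between the depletions the log2 FC was 0.25 for *Acvr1b* (95% interval -0.09 to 0.59, and 0.099 without Zzz3 auxin 1) and -0.19 for *Acvr2b* (-0.54 to 0.16).

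Of the intracellular inhibitors, *Skil* had its lowest levels in Yeats2 auxin. *Skil* (ENSMUSG00000027660, chr3:31095058-31122577, plus strand) was at 63.3 and 55.5 CPM in the controls, at 64.6, 48.4 and 47.2 CPM in Zzz3 auxin and at 39.2, 41.4 and 45.1 CPM in Yeats2 auxin. The 3 Yeats2 auxin libraries lay below the other 5, as they did for *Lefty1* and for *Lefty2*, which was picked for its difference between the depletions. Yeats2 auxin lay below control without overlap in 21% of all genes and below Zzz3 auxin in 5.82%. The share of genes with both was not computed. The log2 FC was -0.50 for Yeats2 auxin against control (SE 0.15, unadjusted P = 0.00707, adjusted P = 0.175 by edgeR). It was -0.15 for Zzz3 auxin (SE 0.15, adjusted P = 0.602) and -0.35 between the depletions (SE 0.14, unadjusted P = 0.0275, adjusted P = 0.779). *Skil* transcripts are GC-poor (41.0%, above 11.5% of the genes tested), and with the GC and length correction the log2 FC for Yeats2 auxin against control was -0.34. Without Zzz3 auxin 1 the difference between the depletions was -0.19.

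*Smad7* (ENSMUSG00000025880, chr18:75367529-75395935, plus strand) differed from both *Lefty* genes in its distribution over the libraries. It was at 98.5 and 99.3 CPM in the controls, at 61.8, 92.5 and 90.1 CPM in Zzz3 auxin and at 99.8, 76.7 and 98.2 CPM in Yeats2 auxin. The lowest value was in Zzz3 auxin 1, the library in which *Lefty1* and *Lefty2* were highest. The log2 FC was -0.28 (SE 0.18, adjusted P = 0.381 by edgeR, and -0.10 without Zzz3 auxin 1) for Zzz3 auxin, -0.11 (SE 0.18, adjusted P = 0.803) for Yeats2 auxin and 0.17 (95% interval -0.18 to 0.52, and 0.0012 without Zzz3 auxin 1) between the depletions. *Smad7* transcripts are GC-rich (56.9%, above 88.1% of the genes tested), and with the GC and length correction the log2 FCs were -0.59 for Zzz3 auxin and -0.33 for Yeats2 auxin against control (adjusted P = 0.179 and 0.525 by edgeR) and 0.26 between the depletions.

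**Figure D3:**
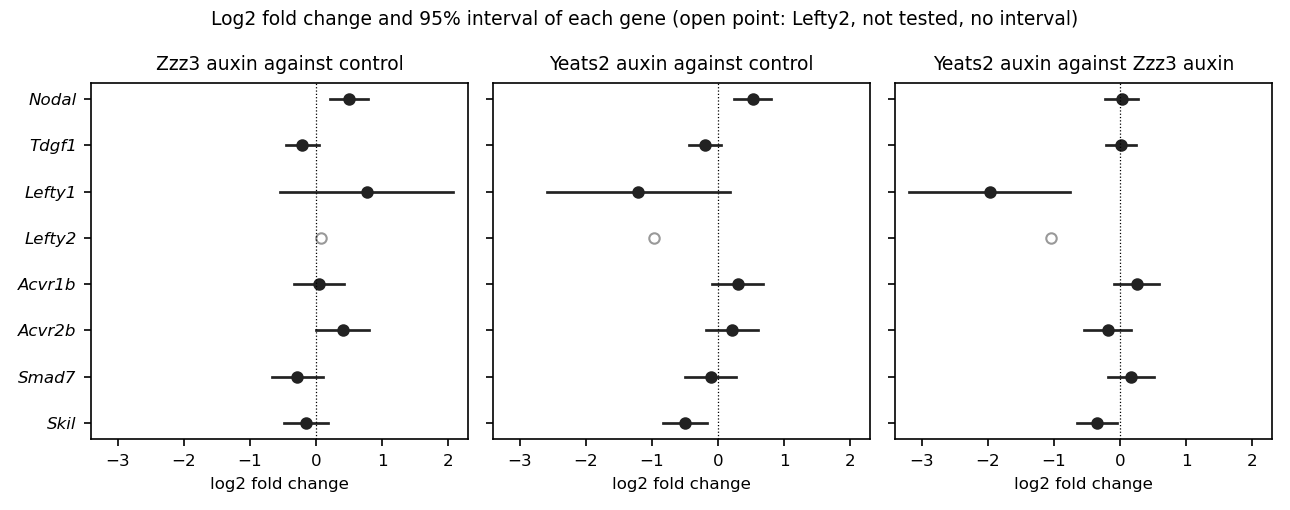
Log2 fold changes of the 8 genes in the 3 comparisons, from the edgeR fit to all 8 libraries, with 95% intervals for the 7 tested genes and an open point without interval for *Lefty2*. *Nodal* lies at 0.49 and 0.52 against control and at 0.03 between the depletions, while *Lefty1* and *Lefty2* lie at -1.97 and -1.04 between the depletions.

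Libraries without overlap were counted for the 7 members as a second description. In Zzz3 auxin against control, *Nodal* and *Acvr2b* lay higher (2 of 7, with 16.8% of all genes) and *Tdgf1* and *Smad7* lower (2 of 7, with 18.9%). In Yeats2 auxin against control, *Nodal* and *Acvr1b* lay higher (2 of 7, with 19.3%) and *Tdgf1*, *Lefty1* and *Skil* lower (3 of 7, with 21%). In Yeats2 auxin against Zzz3 auxin, *Lefty1* and *Skil* lay lower (2 of 7, with 5.82%) and none higher (5.25%). The median log2 FC of the 7 was 0.04, -0.11 and 0.01 in the 3 comparisons, and that of all genes was 0.01, -0.01 and -0.01. Values above and below 0 stood side by side in each comparison.

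The members were set in order of their levels per kilobase of exon. In the controls, the order was *Tdgf1* (162 ± 8.47 CPM per kb, SD, n = 2), *Nodal* (41.9 ± 5.34), *Smad7* (21.9 ± 0.133), *Acvr1b* (9.46 ± 0.353), *Lefty2* (7.28 ± 1.16), *Skil* (6.13 ± 0.564), *Acvr2b* (3.70 ± 0.052) and *Lefty1* (1.36 ± 0.0999). *Lefty2* and *Skil* overlapped there between their libraries, while the other neighbours did not. *Tdgf1*, *Nodal*, *Smad7* and *Acvr1b* kept the first 4 places in this order in both auxin groups, and *Lefty1* the last. In Zzz3 auxin *Lefty2* was the fifth, at 7.66 ± 2.00 CPM per kb (n = 3), and its libraries overlapped with those of *Acvr1b* and *Skil*. In Yeats2 auxin *Lefty2* was at 3.72 ± 0.558 CPM per kb (n = 3), and its libraries overlapped with those of *Skil* (4.32 ± 0.311) and *Acvr2b* (4.30 ± 0.527). The ligand had more RNA per length than its antagonists in all 8 libraries.

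The ratio of antagonist to ligand was read within each library, which needs no scaling between libraries. For each 100 *Nodal* reads, the controls had 26.5 and 17.6 *Lefty2* reads, the Zzz3 auxin libraries 21.5, 12.4 and 14.9, and the Yeats2 auxin libraries 6.69, 7.92 and 8.49. The 3 Yeats2 auxin libraries lay below the 5 others, and the Zzz3 auxin libraries overlapped with the controls. The corresponding *Skil* reads were 79.2 and 58.0 for the controls, 54.6, 40.0 and 35.7 for the Zzz3 auxin libraries, and 32.0, 29.5 and 39.1 for the Yeats2 auxin libraries. Both auxin groups lay below the controls in the *Skil* ratio, and they overlapped with each other. *Skil* transcripts are GC-poor (41.0%) and those of *Nodal* GC-rich (55.9%), so the base composition of a library can enter this ratio. The difference of GC-rich minus GC-poor genes was -0.59 in Control 1, which had the highest ratio, and 0.43 in Zzz3 auxin 3. It was 0.13 in Yeats2 auxin 2, which had the lowest ratio, and 0.15 in Zzz3 auxin 1, at a ratio of 54.6. The part of base composition in the ratio was not tested, and the share of gene pairs without overlap was not computed. Since *Lefty2* was picked for its difference between the depletions, its ratio is a description.

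Across the 8 libraries, *Lefty2* varied most closely with *Lefty1* and *Skil* among the members. Pearson's r of log2 CPM was 0.88 for each of these pairs, and 0.85 and 0.83 without Zzz3 auxin 1 (n = 7). *Skil* and *Acvr1b* varied in opposite directions (r = -0.88, and -0.84 without Zzz3 auxin 1). *Nodal* and *Lefty2* had an r of -0.38. The points share the library, its depth and its base composition as well as the group, so these values only describe the 8 libraries. *Lefty2* was also picked for its difference between the depletions, so genes with a like difference vary with it by that choice. Among 9869 genes averaging 5 CPM or more, the 5 protein-coding genes most like *Lefty2* were *Spic* (r = 0.96), which encodes a transcription factor of the ETS family, *Cd24a* (0.94), which encodes a surface glycoprotein, *A430033K04Rik* (0.94), *Tmem144* (0.94) and *P4ha1* (0.93), a subunit of collagen prolyl hydroxylase. For *Lefty1* they were *Ap3b2* (0.96), *Nudt19* (0.95), *Ralgps2* (0.94), *Armcx2* (0.94) and *Evc* (0.94). All 5 genes most like *Lefty1* were highest in Zzz3 auxin 1, as was *Lefty1*.

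The other 47 genes of the pathway, in 6 lists of ligands and coreceptors, extracellular inhibitors and processing enzymes, receptors, SMADs and partners, intracellular inhibitors and transcription targets, gave no call either. Of the 37 with enough reads, 0 passed the threshold with edgeR in each of the 3 comparisons. DESeq2 called 3 in Zzz3 auxin against control (8.17% of the 13260 genes given an adjusted P) and 0 in the other comparisons. At an unadjusted P under 0.05, 7 of 37 were higher (11.6% of all genes) and 3 lower (10.1%) in Zzz3 auxin than in control. In Yeats2 auxin against control, 3 were higher (7.65%) and 3 lower (6.98%). Between the depletions, 5 were lower (3.81%) and 0 higher (2.44%) in Yeats2 auxin. Their median log2 FC was 0.11, -0.04 and -0.11 in these comparisons, beside 0.01, -0.01 and -0.01 for all genes.

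Of the 37, 3 had an unadjusted P under 0.05 in both comparisons with control. *Bambi*, which encodes a decoy receptor of the family, was at 8.83 to 9.30 CPM in the controls, 10.2 to 14.3 CPM in Zzz3 auxin and 13.3 to 14.6 CPM in Yeats2 auxin (log2 FC 0.50 and 0.63, adjusted P = 0.154 and 0.161 by edgeR). *Smurf1*, a ubiquitin ligase that acts with SMAD7 on the receptors, was at 26.4 to 34.8, 40.6 to 48.2 and 40.3 to 42.7 CPM (0.56 and 0.43, adjusted P = 0.084 and 0.215). *Eomes*, a mesendoderm transcription factor and SMAD target, was at 8.30 to 9.77, 6.16 to 6.89 and 5.07 to 7.20 CPM (-0.46 and -0.64, adjusted P = 0.224 and 0.193). *Bambi* and *Smurf1* were thus higher than both controls in all 6 auxin libraries (10.5% of all genes), and *Eomes* was lower in all 6 (13.2%), none of them past the threshold. Against control, the intracellular inhibitors did not share a direction. Of the 12 intracellular inhibitors, which include *Smurf1*, 7 had a log2 FC above 0 and 5 below 0 in Zzz3 auxin against control. In Yeats2 auxin against control these were 6 and 6.

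The gene with the highest mean CPM of each list gave the following. CPM is not scaled to transcript length, so the order of a list per kilobase of exon can differ. *Tdgf1* led the ligands and coreceptors, and *Nodal* led the transcription targets. *Pcsk6*, a proprotein convertase that can process Nodal, had mean levels of 70.9 ± 6.61 CPM (control, SD, n = 2), 95.5 ± 24.0 CPM (Zzz3 auxin, n = 3) and 77.8 ± 8.02 CPM (Yeats2 auxin, n = 3), a log2 FC of 0.43 and 0.13 against control. *Tgfbr1*, a type I receptor of TGF-beta, was at 147 ± 19.9, 114 ± 21.6 and 138 ± 3.43 CPM (-0.36 and -0.09). *Trim33*, a chromatin-binding partner of the SMADs, was at 224 ± 20.1, 185 ± 22.8 and 187 ± 11.1 CPM (-0.28 and -0.26). *Tgif1*, a repressor that binds SMAD2, was at 202 ± 2.96, 165 ± 7.82 and 167 ± 21.7 CPM (-0.29 and -0.27). None of these 4 passed the threshold in any comparison by edgeR, and *Trim33* and *Tgif1* lay below both controls in all 6 auxin libraries (13.2% of all genes).

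The transcription targets of Nodal and related ligands were lower in Yeats2 auxin than in Zzz3 auxin in most cases, with no call, and the size of the difference depended on Zzz3 auxin 1. Without *Lefty2*, 14 targets had enough reads, and 4 of them are other members. Their median log2 FC was 0.31 for Zzz3 auxin against control, -0.03 for Yeats2 auxin against control and -0.42 between the depletions. In the direct comparison, 10 of 14 had a log2 FC below 0, 4 had an unadjusted P under 0.05 and were lower (3.81% over all genes), and 6 lay lower without overlap (5.82% over all genes). Without Zzz3 auxin 1, the median was 0.07 for Zzz3 auxin against control and -0.18 between the depletions. Zzz3 auxin 1 also had the highest *T*, and the summed level of the 6 mesendoderm markers was 14.6 to 22.8 CPM in Zzz3 auxin, 15.9 to 18.1 CPM in the controls and 12.3 to 15.0 CPM in Yeats2 auxin, with *Cer1* at 0 reads in both controls. *T* and *Eomes* made up most of each sum, all 6 markers are also on the list of targets, and the part of other cell types in these values was not tested.

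The medians of the other lists differed in size and direction. The extracellular inhibitors and processing enzymes (5 genes without *Lefty2*) had medians of 0.43, -0.09 and -0.29 in the 3 comparisons, and the first of these was 0.10 without Zzz3 auxin 1 and 0.10 without Control 1. Between the depletions all 5 had a log2 FC below 0 (-1.97 to -0.16). Of these, 1 had an unadjusted P under 0.05 by edgeR (3.81% of all genes) and 2 lay lower without overlap (5.82%). The ligands and coreceptors (6 genes) had medians of 0.04, -0.10 and 0.02, the receptors (7 genes) 0.04, -0.02 and 0.13, the SMADs and partners (7 genes) -0.10, -0.16 and 0.02, and the intracellular inhibitors (12 genes) 0.11, 0.00 and -0.05. Without Control 1, the median for Zzz3 auxin against control was -0.11 for the ligands and coreceptors and -0.04 for the intracellular inhibitors, and that for Yeats2 auxin against control was -0.30 for the extracellular inhibitors and processing enzymes and 0.12 for the receptors. Without Zzz3 auxin 1, the median of the receptors was 0.21 for Zzz3 auxin against control and -0.016 between the depletions. Genes that appear on more than 1 list count in each.

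**Figure D4:**
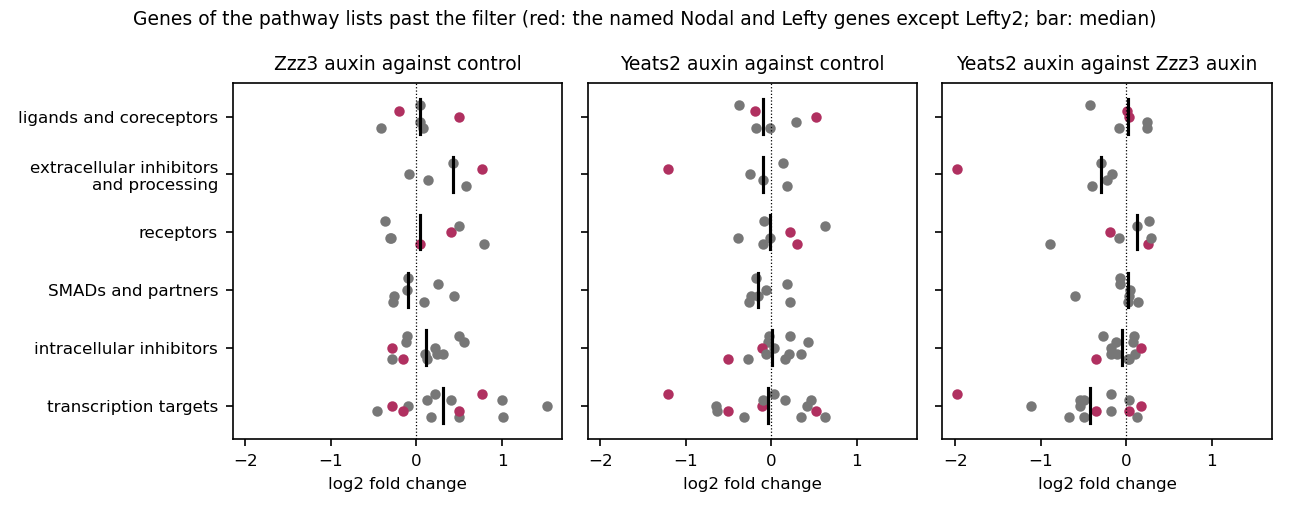
Log2 fold changes of the tested genes of 6 pathway lists in the 3 comparisons, from the edgeR fit to all 8 libraries, with 1 point per gene, members other than *Lefty2* in red, and a bar at the median of each list. The transcription targets have a median of -0.42 in Yeats2 auxin against Zzz3 auxin, and the SMADs and partners a median of 0.02.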

How the data were processed

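The authors deposited raw read counts per gene, 1 file per library, without normalization. Per the methods of the study, ribodepleted total RNA was sequenced (the labels name poly(A) RNA), reads were trimmed, ribosomal RNA reads were removed, and the rest were aligned to mm10 with STAR 2.5.3a and counted with HTSeq 0.6.1p1 in union mode on uniquely aligned reads. The strand option is not stated. The authors tested with DESeq2 1.16.1 in R 3.3.2. Of 55401 identifiers, 55141 had a symbol in GENCODE annotation of GRCm38. The 5 tallies of unassigned reads were left out; ambiguous and no-feature reads made up 31.0 to 38.0% of uniquely aligned reads.

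Tests used edgeR 4.0.16 under R 4.3.3 (filterByExpr, TMM, robust glmQLFit and glmQLFTest, two-sided, a mean per group), and tables in Python 3.11.15. Alternatives were DESeq2 1.42.0, median-of-ratios scaling, a lowess correction for GC and length (span 0.3), no filter, only the compared groups, the replicate number as a block, and leaving out each library. The main edgeR fit was tested on simulated counts, with log2 changes larger than those of the tested members other than *Lefty1*. The other steps were not simulated. No 2 libraries of a group agreed within sampling noise (chi-square per gene 3.69 to 49.4). The members and lists were chosen with earlier results of these data known. Pathway genes are named if their adjusted P was under 0.05 in a comparison, if their unadjusted P was under 0.05 in both comparisons with control, or if they had the highest mean CPM of a list. For *Lefty1* and *Lefty2*, the 5 most similar protein-coding genes are named. Some genes and sequences are not reported here.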

Additional observations from a re-analysis of the deposited data

How the results depend on the processing

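For the log2 FCs of the 7 tested members, the direction and the side of the threshold held in 116 values recomputed under other settings and in 161 with 1 library left out, 4 and 7 turned direction, and 6 of the former passed the threshold. The threshold was crossed by *Nodal*, the 1 member called against control in Zzz3 auxin (no filter on low counts, DESeq2) and in Yeats2 auxin (no filter, DESeq2, only the compared groups, at the edge of the threshold), and by *Lefty1*, the 1 member called between the depletions with no filter. Of the other pathway genes, 1 was called in Zzz3 auxin against control with the GC and length correction, 4 with no filter and 3 with DESeq2, and 0 to 3 with 1 library left out (3 without Zzz3 auxin 2 and 1 without Zzz3 auxin 3). In Yeats2 auxin against control 1 was called with only the compared groups (*Bambi*), and between the depletions 1 with no filter (*Foxh1*). *Foxh1* was named after its values were seen, and the causes were not tested.

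With the GC and length correction, the log2 FC turned to 0.024 for *Skil* and -0.11 for *Acvr1b* in Zzz3 auxin against control and to -0.021 for *Tdgf1* between the depletions. With 1 library left out, the log2 FC ranged from -0.17 to 1.15 for *Lefty1*, from -0.10 to 0.21 for *Acvr1b* and from -0.12 to 0.26 for *Lefty2* (not tested) in Zzz3 auxin against control, from -0.17 to 0.0021 for *Smad7* in Yeats2 auxin against control, and from -0.056 to 0.086 for *Nodal* and -0.045 to 0.054 for *Tdgf1* between the depletions. Same-numbered libraries did not deviate together (r = 0.03, 0.05 and -0.03 for the 3 pairs of auxin libraries), so the numbers were not taken as pairs. Control 2, Zzz3 auxin 3 and Yeats2 auxin 2 had more reads without a unique alignment (51.7, 50.6 and 51.2% of the tally, 45.6 to 47.8% elsewhere). Control 2 deviated with each of the other 2 (r = 0.21 and 0.20), which did not deviate with each other (r = 0.0037). *Nodal* was highest of its group in these libraries (95.7, 132 and 140 CPM). The labels give no batch, and the part of such a split in the values was not tested. With the replicate number as a block, 0 members and 0 other pathway genes were called in each comparison, and *Acvr1b* turned to -0.025 in Zzz3 auxin against control.

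The medians of the lists without Zzz3 auxin 1, without Control 1 and with the GC correction were computed after these libraries were seen to stand apart. Those with the GC correction are not given here. With 2 controls, the comparisons with control rest on few degrees of freedom, and *Lefty1*, at 13 to 202 reads per library, is limited by depth.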
